A study of Mus musculus with 6 samples.

Results

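The 8 cholesterol synthesis enzymes Hmgcs1, Idi1, Fdps, Fdft1, Sqle, Lss, Cyp51 and Dhcr7 were followed in bulk RNA sequencing of mouse inner ear. Members were taken by gene symbol from a table of read counts for 55401 genes, and all 8 were found once each. The libraries came from wild-type mice (WT, n = 3) and from mice whose genotype is written Pou3f4y/- (Pou3f4 KO, n = 3). Pou3f4 is an X-linked transcription factor of the mesenchyme around the ear, and the study compared the genotypes to ask how pigment comes to lie in the mutant inner ear. The labels give the material as inner ear and all of its cells, put "interstitial cells" under cell line, and give no age, sex, strain background or dissection. They do not say whether the libraries of a group came from separate animals, so p-values measure only the spread between these samples.

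Cholesterol is built from acetyl-CoA through mevalonate and isoprenoid diphosphates to squalene, which is then closed into lanosterol and trimmed to cholesterol. Most genes of the route are read together under the SREBP2 transcription factor, which is released when membranes are short of sterol and binds sterol regulatory elements beside NF-Y and Sp1 sites. Myelin is very rich in cholesterol, and Schwann cells make much of it themselves because lipoproteins from blood hardly reach the nerve.

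Promoter sequences show what these enzymes share outside the counts, and are given for the members with the largest fitted differences, Hmgcs1 and Lss, and the smallest, Cyp51. They come from RefSeq on build GRCm38.p6, of which mm10 is the UCSC name. Of the 8 members, 5 had a promoter entry, with 7 start sites among them. Capitals mark matches on either strand to a sterol regulatory element written as TCACNCCAC, to the NF-Y box CCAAT and to the GC box GGGCGG that Sp1 binds. Bases inside the gene positions given with the read counts were left out.
Hmgcs1 (chr13:119690101-119690350, plus strand): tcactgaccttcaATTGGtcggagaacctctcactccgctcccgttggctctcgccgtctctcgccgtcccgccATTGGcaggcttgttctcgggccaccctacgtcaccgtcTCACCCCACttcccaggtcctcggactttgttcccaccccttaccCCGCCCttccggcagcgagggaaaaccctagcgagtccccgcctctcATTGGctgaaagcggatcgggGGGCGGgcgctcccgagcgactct
Lss (chr10:76531355-76531587, plus strand): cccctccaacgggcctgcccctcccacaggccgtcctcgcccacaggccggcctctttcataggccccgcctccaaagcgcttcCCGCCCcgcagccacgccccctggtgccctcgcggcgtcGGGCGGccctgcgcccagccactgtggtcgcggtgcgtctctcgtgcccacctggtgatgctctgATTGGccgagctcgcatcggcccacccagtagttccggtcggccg
Cyp51 (chr5:4104747-4104947, minus strand): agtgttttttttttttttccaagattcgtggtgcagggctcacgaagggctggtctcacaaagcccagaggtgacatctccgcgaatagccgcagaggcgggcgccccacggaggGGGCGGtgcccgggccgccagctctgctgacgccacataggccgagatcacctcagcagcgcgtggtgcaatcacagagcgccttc

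Among these members, only Hmgcs1 held the sterol regulatory element in these letters, beginning 137 bases before the start. Elements spelled otherwise were not searched for, so a window without a match, such as that of Cyp51, may still hold one. That element was found in 1.05% of 32851 promoter windows of 250 bases. The CCAAT box lay in 5 of the 7 windows of members, covering each of the 5 genes, and the GC box in 6 of the 7, against 33.8% and 32.7% of all windows. In Cyp51 the CCAAT box began 29 bases before the start, in the stretch not printed. Member windows had 44.8% to 73.6% G and C, and the shares for all windows were not matched on base composition.

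Total counts ranged from 18409409 to 23323953 per library, and Pou3f4 stood at 58.3 to 114 CPM (read counts scaled to a common library size with TMM factors) in WT and 1.22 to 1.96 CPM in KO. All 8 inner ear markers were detected, led by Coch (203, 854 and 781 CPM in WT, 246 to 263 CPM in KO) and Otor (277 to 397 and 127 to 138 CPM). WT replicate 1 stood apart: Ucp1, the uncoupling protein of brown fat, reached 1181 CPM there, against 7.61 and 11.8 CPM in WT replicates 2 and 3 and at most 0.131 CPM in KO. The 9 adipocyte markers summed to 2608 CPM in that library and to 361 to 519 CPM in the other 5. Reads of Xist, the RNA of the inactive X chromosome, numbered 11165, 9143 and 6 in WT and 1, 15783 and 15119 in KO, so 2 libraries of each genotype held them. A genotype written y/- names males with 1 X chromosome, so the reads in the libraries labelled KO replicates 2 and 3 go against that label, and sex was not settled here. The other WT libraries also differed from each other more than KO libraries did. Chi-square per degree of freedom over genes was 36.6 between WT replicates 2 and 3. It was 60.5 and 81.4 for pairs with WT replicate 1, and 6.25 to 7.59 for KO pairs. Counts of called genes that change without WT replicate 1 are given both ways.

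Each of the 8 enzymes had a lower mean level in KO than in WT, and 0 of 8 passed the threshold of an adjusted p of 0.05 (edgeR quasi-likelihood test, Benjamini-Hochberg over 19687 genes). In that test 0.396% of all genes were called, 0.183% lower in KO, and 51% of all genes had a fitted change below 0. At an unadjusted p under 0.05, 6 of the 8 lay lower in KO, against 10.9% of all genes lower and 19.6% in either direction. The fitted log2 fold changes of the 8 ran from −0.55 to −0.12 with a median of −0.36, beside a median of −0.01 over all genes tested. In bulk tissue, fewer cells that make cholesterol and less RNA per cell cannot be told apart. Libraries of the groups did not overlap for 5 of the 8, each lower in KO, against 12.7% of all genes lower in KO without overlap and 27.7% without overlap in either direction. The 8 were chosen with earlier results of these data known, so these counts are no independent evidence of a direction.

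**Figure D1:**
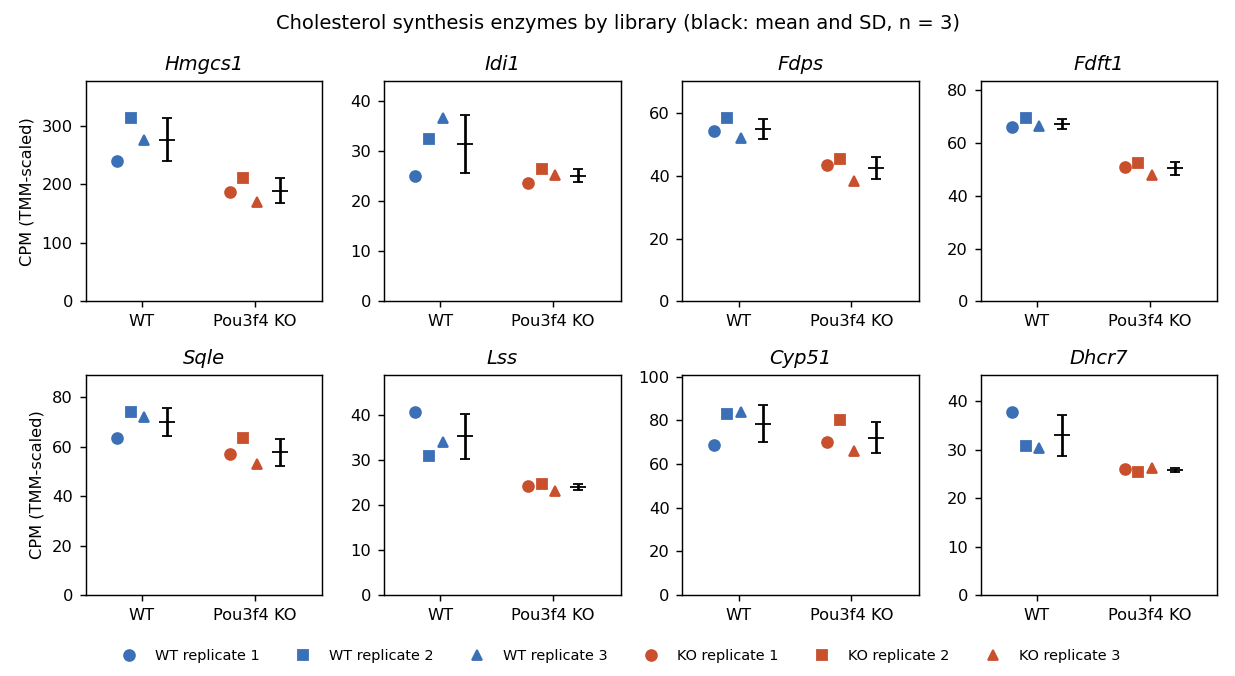
Level of each enzyme in CPM (y axis, from 0, scaled by TMM) by genotype, with 1 symbol per library and the mean and SD of 3 libraries in black. The groups are apart for Hmgcs1, Fdps, Fdft1, Lss and Dhcr7 and overlap for Idi1, Sqle and Cyp51.

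Hmgcs1 (ENSMUSG00000093930, mm10 chromosome 13, 119690379 to 119708260) makes HMG-CoA at the entry of the route. It stood at 240, 314 and 276 CPM in WT replicates 1 to 3 and at 186, 212 and 170 CPM in KO replicates 1 to 3. All KO libraries lay below the lowest WT library. Its log2 fold change was −0.55 (SE 0.13, 95% interval −0.86 to −0.23, adjusted p = 0.126, edgeR), 1.46-fold lower in KO. The antisense gene Gm48342 covers 12.1% of its exons, and whether counting used strand is not stated.

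The next steps turn mevalonate into farnesyl diphosphate. Idi1 (ENSMUSG00000058258, chromosome 13, 8885501 to 8892451), which isomerises isopentenyl diphosphate, stood at 25.1, 32.4 and 36.6 CPM in WT and 23.7, 26.3 and 25.1 CPM in KO. WT replicate 1 lay within the KO range, so the groups overlapped. Its fitted change was −0.33 (SE 0.15, interval −0.68 to 0.03, adjusted p = 0.289, edgeR), and −0.20 without WT replicate 3. Fdps (ENSMUSG00000059743, chromosome 3, 89093588 to 89101959), farnesyl diphosphate synthase, stood at 54.1, 58.5 and 52.1 CPM in WT and 43.4, 45.4 and 38.5 CPM in KO, with no overlap. Its fitted change was −0.37 (SE 0.09, interval −0.59 to −0.15, adjusted p = 0.132, edgeR). The level of Fdps is uncertain because the same-strand gene model Gm43738 covers 26.7% of its exons, and 4 pseudogenes with near-identical stretches held 11.3% as many counts.

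Fdft1 (ENSMUSG00000021273, chromosome 14, 63145150 to 63179578), squalene synthase, commits farnesyl diphosphate to sterols and had the smallest p of the 8. It stood at 66.1, 69.6 and 66.5 CPM in WT and 51.1, 52.6 and 47.8 CPM in KO, a gap wider than the spread within either group. The fitted change was −0.42 (SE 0.07, interval −0.59 to −0.25, adjusted p = 0.0671, edgeR), 1.34-fold lower in KO. Only 1.12% of all genes had a smaller p. The far more abundant Ctsb runs on the opposite strand through 18.3% of its exons. Sqle (ENSMUSG00000022351, chromosome 15, 59315077 to 59331192), squalene epoxidase, a rate-limiting step of the sterol branch, stood at 63.6, 74.3 and 71.9 CPM in WT and 57.0, 63.7 and 52.9 CPM in KO. KO replicate 2 reached the level of WT replicate 1, and the fitted change was −0.27 (SE 0.10, interval −0.51 to −0.03, adjusted p = 0.21, edgeR).

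Lss (ENSMUSG00000033105, chromosome 10, 76531588 to 76557138), which folds epoxysqualene into lanosterol, stood at 40.7, 30.9 and 33.9 CPM in WT and 24.1, 24.6 and 23.1 CPM in KO. The KO libraries lay close together and below each WT library. Its fitted change was the largest in size of the 8, at −0.55 (SE 0.12, interval −0.84 to −0.26, adjusted p = 0.107, edgeR) or 1.47-fold lower. Cyp51 (ENSMUSG00000001467, chromosome 5, 4081145 to 4104746), the lanosterol demethylase, stood at 68.6, 82.9 and 84.1 CPM in WT and 70.0, 80.0 and 66.1 CPM in KO. The groups overlapped, and its interval of −0.40 to 0.15 includes 0 (log2 fold change −0.12, SE 0.11, adjusted p = 0.573, edgeR). That small value moved with single libraries, to −0.23 without WT replicate 1, −0.20 without KO replicate 2, −0.08 without WT replicate 2, −0.07 without WT replicate 3 and −0.06 without KO replicate 3. Dhcr7 (ENSMUSG00000058454, chromosome 7, 143823145 to 143848410), the reductase that yields cholesterol, stood at 37.8, 30.8 and 30.3 CPM in WT and 25.9, 25.3 and 26.2 CPM in KO, without overlap. Its fitted change was −0.35 (SE 0.11, interval −0.62 to −0.08, adjusted p = 0.177, edgeR).

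WT replicate 1, the library with the most brown fat reads, held the highest WT level of Lss and Dhcr7 and the lowest of Hmgcs1, Sqle, Cyp51, Idi1 and Fdft1. The part of that tissue in the enzyme levels was not tested, and the differences without the library were measured. Leaving it out did not even out fat markers, as 5 of 7 adipocyte genes tested were still called lower in KO (edgeR). Without WT replicate 1, 4 of 8 fell (edgeR): Hmgcs1 (−0.65, adjusted p = 0.0228), Lss (−0.45, adjusted p = 0.0281), Idi1 (−0.48, adjusted p = 0.0307) and Fdft1 (−0.44, adjusted p = 0.0188). In that fit 5.46% of all genes were called lower. DESeq2 on all 6 libraries called 4 of 8 lower, Hmgcs1 (adjusted p = 0.00586), Lss (0.00501), Fdps (0.0279) and Fdft1 (0.000598), against 5.43% of genes called lower. Without WT replicate 2 the only member called was Lss (−0.64, adjusted p = 0.048, edgeR), where 2.37% of genes were called lower. Leaving out WT replicate 3 or any KO library gave 0 of 8, in fits where 0 genes of the whole table were called (edgeR).

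**Figure D2:**
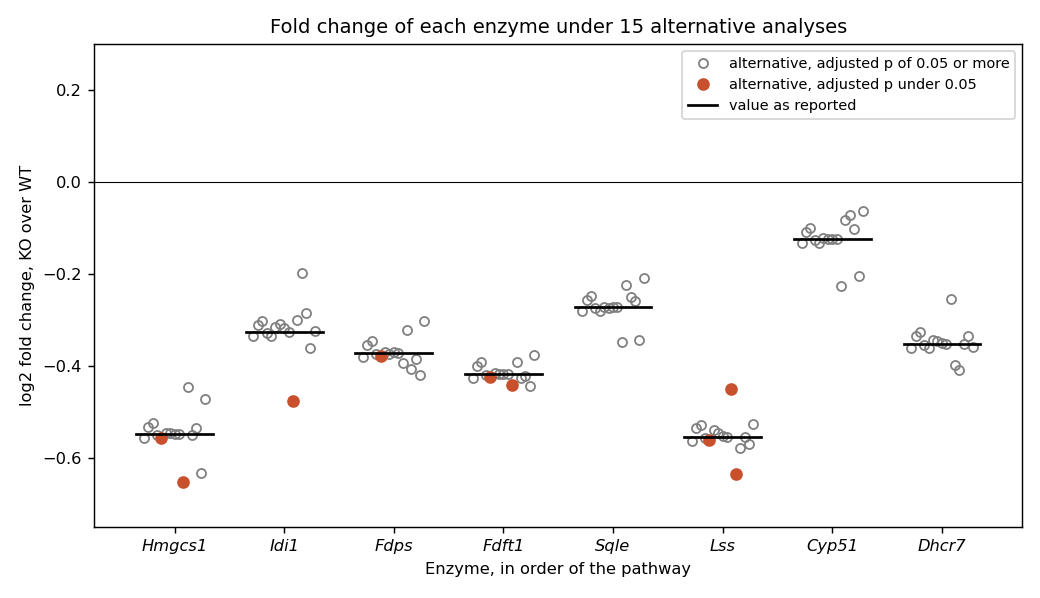
Log2 fold change of KO over WT (y axis) for each enzyme in pathway order, as reported (black line) and under 15 alternative analyses (circles, filled where the adjusted p was under 0.05). Every circle lies below 0; Hmgcs1, Idi1, Fdps, Fdft1 and Lss have filled circles and Sqle, Cyp51 and Dhcr7 have none.

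Within genotypes the enzymes partly shared their order of libraries. Of the 8, 7 were highest among KO libraries in KO replicate 2 and 6 were lowest in KO replicate 3. Dhcr7 went against both, being lowest in KO replicate 2 and highest in KO replicate 3. In WT replicate 2, 4 of 8 were highest. The coefficient of variation ran from 2.85% (Fdft1) to 18.6% (Idi1) in WT and from 1.82% (Dhcr7) to 11.2% (Hmgcs1) in KO. Counting error at the lowest count of each gene was 1.79% (Hmgcs1) to 4.83% (Lss).

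Levels between genes were compared per kilobase of exon. Hmgcs1 was the most abundant, at 60.2 ± 8.01 CPM per kb in WT and 41.2 ± 4.59 in KO (SD, n = 3 each). In WT it was followed by Cyp51 (17.8 ± 1.95), Fdft1 (16.0 ± 0.454), Fdps (13.05 ± 0.778) and Sqle (12.6 ± 1.01 CPM per kb). Cyp51 and Fdft1 differed by less than the SD of Cyp51 in WT, and Fdps and Sqle by less than either SD. Idi1 (8.95 ± 1.66), Dhcr7 (5.66 ± 0.728) and Lss (3.26 ± 0.463 CPM per kb) were lowest. In KO the order was the same except that Sqle (10.4 ± 0.98) and Fdps (10.1 ± 0.85), again within their SDs, changed places. Exon length covers every annotated transcript, 10.8 kb for Lss, so genes with rare long transcripts are understated.

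The other 13 enzymes between acetyl-CoA and cholesterol had mostly lower fitted levels in KO too. Of these, 11 had fitted changes below 0, with a median of −0.34, and 0 of 13 passed in either direction (edgeR). At an unadjusted p under 0.05 there were 9, with Ebp among them higher in KO, against 19.6% of all genes in either direction. Lbr, which is both a sterol reductase and a lamin receptor, averaged 93.3 ± 34.3 CPM in WT against 97.5 ± 8.98 CPM in KO (SD, n = 3 each, here and in what follows). Its fitted change of 0.06 turned to −0.18 without WT replicate 1 and was 0.38 without WT replicate 2. DESeq2 called 4 of 13 lower, Acat2 and Msmo1 among them, and edgeR without WT replicate 1 called 5 lower, among them Acat2, Nsdhl and Sc5d. Those fits called 5.43% and 5.46% of all genes lower.

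Ebp, the sterol isomerase, was picked with its values known and went the other way, with 26.7 ± 3.48 CPM in WT against 32.8 ± 2.01 CPM in KO and no overlap (0.30, SE 0.12, adjusted p = 0.249, edgeR). Without WT replicate 1 its fitted change was 0.19 (adjusted p = 0.224, edgeR). Other enzymes that use isoprenoid diphosphates, for ubiquinone, dolichol and protein prenylation, had a median of −0.01 (11 genes, 0 called and 0 at an unadjusted p under 0.05). Among them Nus1, for dolichol synthesis, stood at 96.6 ± 11.9 and 115 ± 4.32 CPM in WT and KO, and Fnta, a prenyltransferase subunit, at 91.1 ± 4.23 and 80.5 ± 3.73 CPM.

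**Figure D3:**
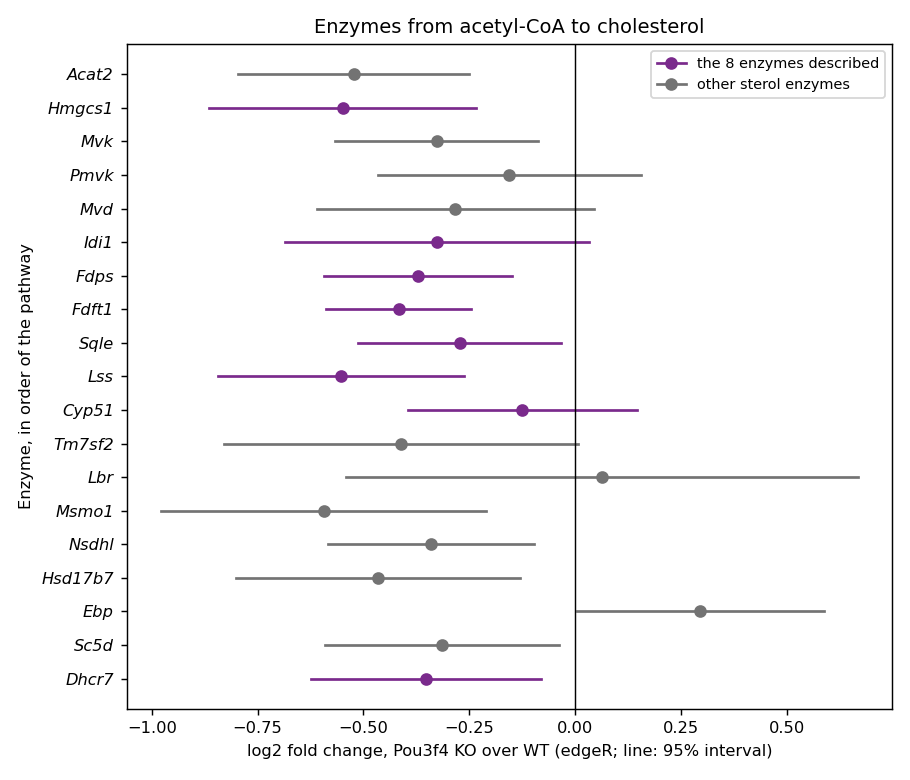
Fitted log2 fold change of KO over WT (x axis; line, 95% interval from edgeR) for enzymes of the route in pathway order, the 8 described in purple and others in grey. Points lie below 0 except Lbr and Ebp.

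Sterol sensing genes were mixed in direction. Of 9 tested, 0 passed (edgeR; 1 at an unadjusted p under 0.05), 5 had fitted changes below 0 and the median was −0.04, or 0.04 without WT replicate 1. Srebf2, which encodes the SREBP2 factor itself and was picked with its values known, averaged 101 ± 2.27 CPM in WT against 95.3 ± 0.849 CPM in KO (−0.09, SE 0.06, adjusted p = 0.492). The protease Mbtps1, which cuts SREBP, stood at 192 ± 2.45 and 213 ± 14.985 CPM. Insig2, a protein that holds SREBP in the endoplasmic reticulum and also picked with its values known, stood at 97.0, 118 and 97.6 CPM in WT and 145, 137 and 138 CPM in KO. Its change of 0.43 (SE 0.10) had an adjusted p of 0.115 with edgeR, and 0.00957 with DESeq2; leaving out WT replicate 1 gave 0.0551 and leaving out WT replicate 2 gave 0.0313 with edgeR.

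Genes that move sterol into, within and out of cells were mixed in direction as well. Uptake and transport had 5 of 12 fitted changes below 0 (median 0.04, 0 called, 3 at an unadjusted p under 0.05). There, the lipoprotein receptor Lrp1 stood at 442 ± 106 and 451 ± 57.3 CPM, and Npc2, which hands sterol out of lysosomes, at 310 ± 40.0 and 405 ± 3.41 CPM (adjusted p = 0.154, edgeR; 0.0311, DESeq2). With edgeR its adjusted p was 0.0918 without WT replicate 1 and 0.0396 without WT replicate 2. In the fit without WT replicate 1, Vldlr rose (0.54, adjusted p = 0.0433) and Gramd1b fell (−0.43, adjusted p = 0.0186). Efflux and turnover had 5 of 10 tested changes below 0 (median 0.02, 0 called, 2 at an unadjusted p under 0.05). In that group Apoe stood at 727 ± 167 and 592 ± 17.8 CPM and the efflux pump Abca1 at 153 ± 21.5 and 203 ± 16.6 CPM. Without WT replicate 1, 2 of these genes fell (Apoe and Cyp7b1, edgeR), in a fit where 5.46% of all genes were called lower.

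Lipid genes beside the sterol route held the 2 calls among all pathway lists. Of 12 fatty acid synthesis genes, each had a fitted change below 0, with a median of −0.22, and only Me1 fell, from 90.2 ± 7.48 to 55.1 ± 1.68 CPM (−0.71, SE 0.08, adjusted p = 0.049, edgeR). Me1 makes cytosolic NADPH, which both fatty acid and sterol synthesis consume. Scd2, a desaturase, averaged 882 ± 177 CPM in WT against 746 ± 30.4 CPM in KO, a fitted change of −0.24 (adjusted p = 0.428, edgeR). Its relative Scd1 stood at 647 CPM in WT replicate 1, 149 and 145 CPM in the other WT libraries and 90.4 to 108 CPM in KO. Its fitted change was −1.63 (adjusted p = 0.206, edgeR). Leaving out WT replicate 1 brought Scd1 to −0.55 (adjusted p = 0.0203) and Scd2 to −0.41 (adjusted p = 0.0201, edgeR). In that fit 5 of 12 fell (Acss2, Scd1, Scd2, Elovl6 and Me1), and DESeq2 on all libraries called 3 lower (Acacb, Elovl6 and Me1). The shares of all genes called lower were 5.46% and 5.43%. Of 8 genes for myelin sphingolipids, 7 had changes below 0 (median −0.22) and Fa2h fell, from 54.4 ± 18.7 to 15.7 ± 0.785 CPM (−1.79, SE 0.23, adjusted p = 0.049, edgeR). Cers2, for very long chain ceramides, stood at 178 ± 12.9 and 158 ± 3.22 CPM, and Degs1, which desaturates ceramide, at 149 ± 13.3 and 124 ± 5.07 CPM. Without WT replicate 1, 3 of these 8 fell (Fa2h, Ugt8a and Gal3st1, edgeR), and DESeq2 called 2 lower (Fa2h and Ugt8a). With WT replicate 3 or any KO library left out, 0 genes of the table were called (edgeR), so the calls of Me1 and Fa2h were lost.

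Markers of myelinating cells were lower in KO beside the enzymes, by larger fitted amounts. Summed over the 8 enzymes, levels were 597, 693 and 651 CPM in WT and 481, 529 and 449 CPM in KO. Sums of 16 Schwann cell and myelin genes were 4896, 8944 and 8031 CPM in WT and 3565, 3990 and 3514 CPM in KO, and all 15 tested members had changes below 0 (median −0.95, 5 fell with edgeR). Without WT replicate 1, 15 of 16 fell (median −1.19, edgeR), and DESeq2 on all libraries called 11 of 15 lower. Of all genes, 5.46% and 5.43% were called lower in these fits. Mbp, myelin basic protein, averaged 2098 ± 885 CPM in WT against 1132 ± 117 CPM in KO (adjusted p = 0.208, and 0.00465 without WT replicate 1, edgeR). WT replicate 1 was the lowest WT library in both sums, and KO replicate 2 the highest KO library. The myelin list was chosen with earlier results of these data known and is no independent evidence of a direction. Whether the lower enzyme levels lie in Schwann cells was not tested.

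Oligodendrocyte markers, from central myelin, were present too, none of the 6 at 0 over all libraries. They summed to 48.7, 288 and 360 CPM in WT and 124 to 158 CPM in KO (0 of 6 called, median −0.70), led by the myelin gene Mobp at 182 ± 133 and 107 ± 13.3 CPM. Of these 6, 4 fell without WT replicate 1 (median −1.10, edgeR). Skeletal muscle markers summed to 5872, 132 and 10185 CPM in WT and 24.0 to 765 CPM in KO. Of 10 neuron genes, all had changes below 0 (median −0.72, 1 called lower with edgeR). That count was 6 without WT replicate 1 and 4 with DESeq2. Of 8 osteoblast genes, 7 had changes above 0 (median 0.69, 3 called higher, 4 without WT replicate 1). Macrophage markers summed to 344 to 455 CPM in WT and 598 to 631 CPM in KO, and markers of dividing cells to 277 to 566 and 508 to 666 CPM. Of the macrophage and dividing cell genes 0 of 5 each were called, and without WT replicate 1 the macrophage count was 2 higher. Of cartilage genes 2 of 7 fell, or 4 without WT replicate 1. With all libraries 0 of 7 erythroid, 0 of 7 neutrophil, 0 of 7 adipocyte and 0 of 11 muscle genes tested were called (edgeR). These counts without WT replicate 1 were 6 erythroid, 2 neutrophil, 5 adipocyte and 0 muscle genes, all lower in KO, and inner ear genes called lower went from 1 to 3 of 8. Over all genes the share called lower went from 0.183% to 5.46% between these fits. The part of these cell types in the enzyme levels was not tested.

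**Figure D4:**
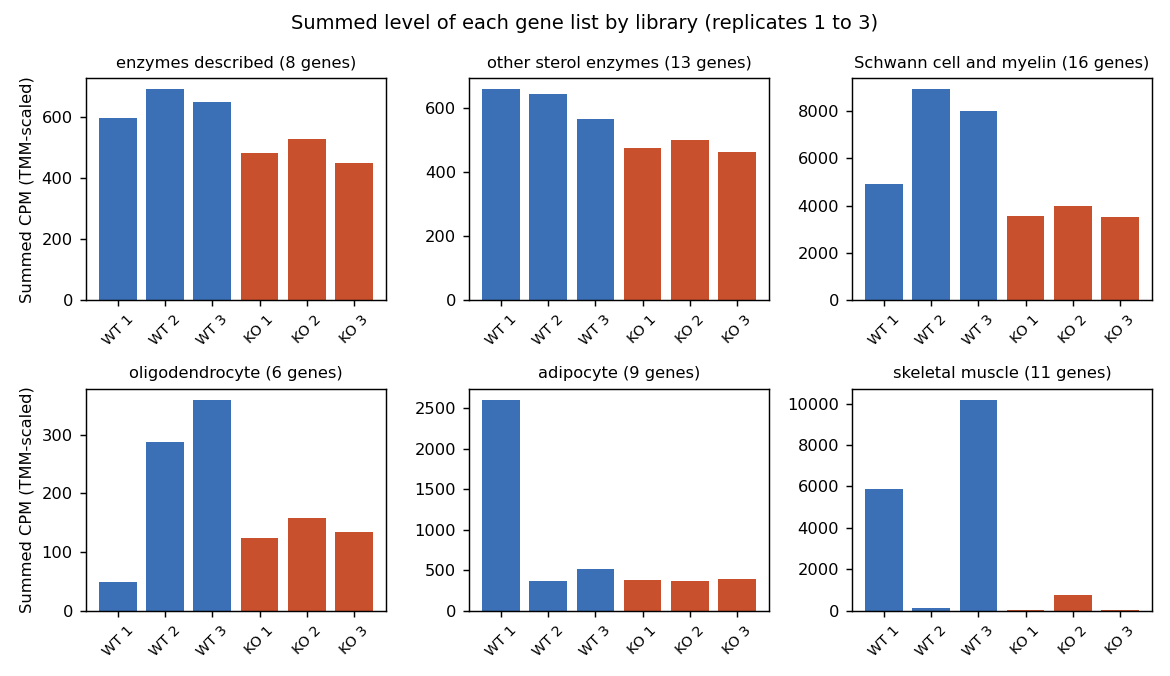
Summed level in CPM (y axis, each panel with its own scale from 0) of 6 gene lists in the 3 WT (blue) and 3 KO (red) libraries. The enzyme sums are 449 to 529 CPM in KO and 597 to 693 CPM in WT, and adipocyte markers stand out in WT replicate 1 at 2608 CPM.

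Among named genes with a mean of at least 1 CPM, those whose log2 levels followed the mean standardised profile of the 8 enzymes most closely over the 6 libraries were Vat1l (Pearson r = 0.996), Dnm1l (0.993), G0s2 (0.992), Vgf (0.991) and St8sia1 (0.991). These are the highest values among all such genes, taken over 6 points in 2 groups, and are a description only. The mitochondrial fission GTPase Dnm1l averaged 135 ± 1.93 CPM in WT against 124 ± 3.17 CPM in KO, a difference much smaller than that of Vat1l or Vgf. G0s2, an inhibitor of fat breakdown, stood at 12.8 ± 1.15 and 6.84 ± 1.27 CPM. Vgf, a neuropeptide precursor, fell from 8.64 ± 0.621 to 2.53 ± 0.741 CPM (−1.76, SE 0.24, adjusted p = 0.049, edgeR). St8sia1, a ganglioside sialyltransferase, stood at 12.8 ± 0.489 and 8.72 ± 1.19 CPM, and Vat1l at 66.4 ± 9.98 and 34.6 ± 6.37 CPM.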

How the data were processed

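The authors deposited raw read counts per gene, whole numbers with no normalisation, for 6 libraries. Per the labels' protocols TRIzol extraction was followed by TruSeq Stranded mRNA library preparation. Per the submitters' processing notes the tools were Trimmomatic, HISAT2, Cufflinks and HTSeq on mm10; the sources used here give no version, annotation release or strand setting. Genes passing filterByExpr (minimum count 10; 19687 of 55401, all 8 enzymes among them) were scaled by TMM and compared with edgeR 4.0.16 (glmQLFit, glmQLFTest, genotype alone), with Benjamini-Hochberg adjustment over all genes tested and a threshold of 0.05. SE is the size of the log2 fold change over the square root of F, and intervals are 95%. A count of 0 allows 3 reads, 0.131 to 0.168 CPM, for counting error only.

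Exon lengths and overlaps are from GENCODE M21. Near-identical copies are transcripts of other genes matching over at least 300 bases at 95% identity (blastn 2.17.0). The members and the gene lists were chosen with earlier results of these data known. Named were the 8 enzymes, called genes of each pathway list (with the 2 most abundant where fewer than 2 were called), the most abundant markers of lists described by name, and the 5 genes of most similar profile (log2 CPM, prior count 2). Any other gene of these lists was chosen after its values were seen, including those named for a call with DESeq2 or without a WT library. Some genes that this rule names are not reported here. Alternatives were other scaling and filters, DESeq2 1.42.0, limma-voom (limma 3.58.1), the replicate number or Xist as a term, and leaving out genes or libraries. The fit was also run on simulated counts with known fold changes. These held no outlying library and no changes as small as those of the enzymes, so they do not test the fit for such data.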

Additional observations from a re-analysis of the deposited data

How the results depend on the processing

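All 8 enzymes kept a log2 fold change below 0 in each of the 15 alternatives, and adjusted p under 0.05 was reached for 4 of them with DESeq2 and otherwise only with a WT library left out. Over single left-out libraries the enzymes called ranged from 0 to 4 and the other sterol enzymes called from 0 to 5. DESeq2 called 4 enzymes and 4 other sterol enzymes, the latter count, like those of the other gene lists under DESeq2 or without a WT library, chosen after seeing the data. Genes called over the whole table numbered 78 (78 shared with DESeq2, which called 1603), 1 with the replicate block, 0 with Xist presence as a term (3185 at an unadjusted p under 0.05, edgeR), and 0 to 1814 with 1 library left out. Those called were 1814 without WT replicate 1 and 760 without WT replicate 2, and 0 without WT replicate 3 or KO replicate 1, 2 or 3, where 3364, 2199, 2638 and 2087 had an unadjusted p under 0.05 (edgeR). The cause of these shifts was not tested. Same-numbered libraries did not deviate together (r = −0.131, −0.295 and −0.191). With 3 libraries per group this cannot exclude a shared litter or batch, and the labels do not say whether the numbers pair libraries. With the block, 0 enzymes were called, as without it. Scaling by RLE or upper quartile left the median of the enzymes at −0.37 and −0.34, and the whole-table calls were 49.3% and 38.2% lower in KO, against 36 of 78 as reported. The thinnest counts among the enzymes were those of Lss, at 428 in KO replicate 3, a counting error of 4.83%.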
